A study of Mus musculus with 4 samples.

Results

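The 10 genes examined here encode the SOX transcription factors that are best known from neural cells: Sox1, Sox2 and Sox3 of group SOXB1, Sox21 of group SOXB2, Sox4, Sox11 and Sox12 of group SOXC, Sox5 and Sox6 of group SOXD, and Sox9 of group SOXE. They were taken by name, as those clusters (the probes of 1 transcript, read as 1 signal) that carry the gene's symbol alone, and each of the 10 genes has 1 such cluster among 28856 clusters and 19938 named genes on the array. RNA was measured in 4 populations sorted from mouse cells, with 1 array for each. On day 9, neural aggregates made by the SFEBq method from 129SVEV embryonic stem cells (ESCs) gave the populations labelled CORIN+LMX1A::GFP+ (ESC CORIN+) and, without the CORIN antigen, CORIN-LMX1A::GFP+ (ESC CORIN-). Both of these populations therefore carried the GFP knocked into the Lmx1a locus, had been exposed to SHH and FGF8b, and were gated on GFP. The ventral midbrain (VM) of C57BL/6N fetuses at E11.5 gave VM CORIN+ and VM CORIN- cells, which were not gated on LMX1A, so the VM CORIN- population can hold any other cell of the dissected tissue. At least 100000 sorted cells went into each RNA extraction, and how many cultures or fetuses stand behind an array is not stated.

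All SOX proteins bind DNA through an HMG box, which fits into the minor groove and bends the helix. SOXB1 factors keep neural cells in the progenitor state, SOXB2 factors counteract them, and SOXC factors switch on neuronal genes such as Tubb3 as progenitors leave the cell cycle. SOXD factors have no activation domain of their own and modify the action of other SOX proteins, and SOX9 acts in neural stem cells and at the onset of gliogenesis. In the midbrain, SOX6 marks floor plate progenitors and the dopaminergic neurons of the substantia nigra.

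The promoters of 4 genes are shown because they stand for the opposite directions between ESC-derived and fetal CORIN+ cells, with Sox2 and Sox21 higher in culture and the SOXC pair Sox4 and Sox11 higher in the fetus. Each is the stretch of 250 bases before the annotated gene start in RefSeq (GRCm38.p6), read 5′ to 3′ on the strand of the gene. Sox2 lies at chr3:34649745-34649994 on the plus strand, and Sox21 at chr14:118237031-118237280, Sox4 at chr13:28953700-28953949 and Sox11 at chr12:27342719-27342968 on the minus strand. Capitals mark the SOX core motifs ACAAAG and ACAATG and the E-box CAGCTG, a motif of proneural factors, each searched on both strands.
Sox2: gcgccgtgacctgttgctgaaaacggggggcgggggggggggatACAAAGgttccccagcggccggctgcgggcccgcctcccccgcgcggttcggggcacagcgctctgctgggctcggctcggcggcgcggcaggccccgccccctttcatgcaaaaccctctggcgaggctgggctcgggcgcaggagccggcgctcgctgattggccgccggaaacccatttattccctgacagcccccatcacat
Sox21: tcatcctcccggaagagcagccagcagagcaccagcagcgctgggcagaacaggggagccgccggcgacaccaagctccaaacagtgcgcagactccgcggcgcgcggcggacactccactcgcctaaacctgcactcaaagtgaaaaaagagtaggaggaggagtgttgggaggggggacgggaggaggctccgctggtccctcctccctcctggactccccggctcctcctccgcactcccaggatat
Sox4: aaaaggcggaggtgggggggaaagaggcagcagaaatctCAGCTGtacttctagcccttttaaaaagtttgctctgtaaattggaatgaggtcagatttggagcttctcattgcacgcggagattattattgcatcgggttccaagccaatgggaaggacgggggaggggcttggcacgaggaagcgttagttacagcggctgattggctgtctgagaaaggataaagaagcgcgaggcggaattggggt
Sox11: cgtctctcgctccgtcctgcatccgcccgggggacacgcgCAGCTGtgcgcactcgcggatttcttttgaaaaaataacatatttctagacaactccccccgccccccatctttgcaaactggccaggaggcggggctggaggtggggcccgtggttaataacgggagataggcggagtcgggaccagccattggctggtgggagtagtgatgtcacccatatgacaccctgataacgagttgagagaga
The Sox4 and Sox11 stretches each held 1 CAGCTG, which began 211 and 210 bases before the gene start, and 13.0% of all 32851 promoters in the table hold this motif in the same window. The Sox2 stretch held 1 ACAAAG, a motif found in 16.5% of promoters. The Sox21 stretch held neither SOX core motif nor CAGCTG, and no stretch of the 4 held ACAATG, which is in 10.7% of promoters. No motif overlapped another. All 4 stretches were rich in CpG, with 27 in Sox2, 17 in Sox21, 11 in Sox4 and 17 in Sox11, against a median of 6 over all promoters. Such matches describe the letters only, and no factor was measured on them. Of the other members, 4 matched the promoter table, namely Sox1, Sox12, Sox5 and Sox6. Among these, CAGCTG was found in 1 of the 6 promoters of Sox6 and not in those of Sox1, Sox12 or Sox5. Both SOX core motifs occurred among the promoters of Sox6, ACAATG also in that of Sox5, and neither in those of Sox1 or Sox12. CpG counts were 29 in Sox1, 35 in Sox12, 3 in Sox5 and from 1 to 10 in Sox6.

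With 1 array for each population, a difference has no replicate check, no error and no p-value. As a yardstick, the log2 differences of all clusters had a scaled median absolute deviation (MAD) of 0.146 between the ESC-derived populations and 0.162 between the fetal populations. Between sources it was 0.245 for CORIN+ cells and 0.260 for CORIN- cells. Counts are of genes with a 1.5-fold or larger difference, which is 0.585 on the log2 scale. Each array enters a comparison by CORIN and a comparison by source, so these comparisons share arrays. Levels of different genes were not compared, since every cluster has its own probes. All 10 SOX genes lay above the median signal of the array in each of the 4 populations, where the array medians ran from 7.97 to 8.03. Corin measured 13.10 and 11.13 (ESC CORIN+ and CORIN-) and 11.43 and 7.28 (VM CORIN+ and CORIN-) on the log2 scale, so the sorted marker follows the labels within each source. Between sources it does not, since ESC CORIN- cells were close to VM CORIN+ cells and 14.4-fold above VM CORIN- cells. The comparison of CORIN- cells by source thus sets unlike Corin signals side by side. Transcripts of other cell types differed between the arrays, most widely in the VM. The 12 macrophage genes were all 1.5-fold or more higher in VM CORIN+ than in VM CORIN- cells, with a summed linear signal of 18451 against 1301, and 12 of 13 genes of mesenchyme and cartilage were higher, with 25739 against 6401. Endothelial genes (3 of 10 higher, median 0.42) and neural crest genes (1 of 6 higher and 2 lower, median -0.11) differed less between the VM populations. In culture, 8 of the 13 mesenchyme and cartilage genes (summed signal 6415 against 10129) and 4 of the 10 endothelial genes (1899 against 2541) were 1.5-fold or more lower in ESC CORIN+ than in ESC CORIN- cells. Of 11 floor plate genes, 5 were higher in ESC CORIN+ than in ESC CORIN- cells, 6 were higher in VM CORIN+ than in VM CORIN- cells, and 10 were higher in the culture than in the fetus for CORIN+ and for CORIN- cells. In such bulk RNA, fewer cells of a type cannot be told apart from less of the RNA in each cell.

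No SOX gene was 1.5-fold apart between CORIN+ and CORIN- cells, in culture or in the fetus. In the ESC-derived cells 4 genes were higher and 6 lower in ESC CORIN+ cells, from -0.48 (Sox11) to 0.52 (Sox21), with a median log2 difference of -0.08 against 0.00 over all clusters. Past 1.5-fold lay 1.34% of all clusters on the higher side and 1.98% on the lower side. In the fetal VM 2 genes were higher and 8 lower in CORIN+ cells, from -0.41 (Sox4) to 0.35 (Sox6), with a median of -0.24 against -0.04 over all clusters. Here the background was 4.97% of all clusters on the higher side and 2.59% on the lower side. With shares this small, a count of 0 among 10 genes lies near the background in both sources.
The range of the SOX differences was wider by source, and so was the MAD of all clusters, while the 1.5-fold cut stayed fixed. Past the MAD lay 6 (culture) and 7 (fetal VM) of the 10 genes by CORIN. By source 7 (CORIN+ cells) and 8 (CORIN- cells) lay past it. The shares of all clusters past the MAD were 34.6%, 37.8%, 36.8% and 37.4% in the same order. In CORIN+ cells 2 genes (Sox2 and Sox21) were 1.5-fold or more higher in the ESC-derived population, where 6.90% of all clusters were, and 4 genes (Sox1, Sox4, Sox11 and Sox9) were 1.5-fold or more lower, where 7.03% of all clusters were. In CORIN- cells the same 4 genes were 1.5-fold or more lower, beside 6.80% of clusters, and no SOX gene was 1.5-fold higher, beside 8.99% of clusters. The macrophage signal of the CORIN- cells was 1227 in culture and 1301 in the fetus, and their erythroid signal 887 and 8748. In that comparison 6 of 13 mesenchyme and cartilage genes and 8 of 10 pluripotency genes were 1.5-fold or more higher in culture, with summed pluripotency signals of 5188 and 1289. The part of other cell types in the SOX differences was not tested. Bright clusters differed more often. Among the 14428 clusters above the median mean signal, which include all 10 SOX genes, the shares 1.5-fold or more lower were 8.6% in CORIN+ and 9.6% in CORIN- cells, and the shares higher were 10.1% and 13.7%. Source stands here for culture against fetus, strain, stage and the GFP gate together, which cannot be told apart. Whether the culture and fetal arrays were processed and normalized together is not stated either, so the folds between sources rest on the deposited scaling.

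**Figure D1:**
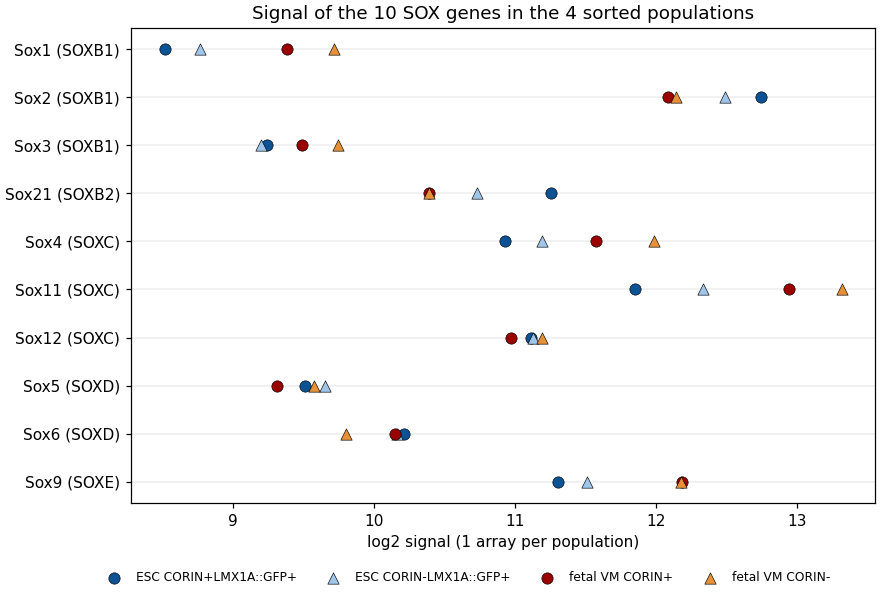
Log2 signal (horizontal axis) of each of the 10 SOX genes (rows, with the SOX group) in the 4 sorted populations, 1 array each. Circles are CORIN+ and triangles CORIN- populations, blue ESC-derived and red or orange fetal. For Sox11 the ESC CORIN+ array is lowest (11.85) and the VM CORIN- array highest (13.31), and for Sox2 the ESC-derived arrays lie above the fetal ones.

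The 3 SOXB1 genes did not share one order of populations. Sox2, the factor shared by pluripotent cells and neural progenitors, had log2 signals of 12.75 (ESC CORIN+), 12.49 (ESC CORIN-), 12.08 (VM CORIN+) and 12.14 (VM CORIN-). It was thus highest in ESC CORIN+ cells and nearly level within the fetus. The log2 difference by CORIN was 0.26 in the ESC-derived cells, higher than 92.4% of clusters, and -0.06 in the fetal VM. By source it was 1.58-fold higher in ESC CORIN+ cells, and 1.27-fold in CORIN- cells. The pluripotency genes ran the other way within the culture: 9 of 10 were 1.5-fold or more lower in ESC CORIN+ cells, with a summed linear signal of 1186 against 5188, and Nanog had log2 signals of 6.90 and 9.50. By source the summed pluripotency signal was 1186 in culture and 1159 in the fetus for CORIN+ cells, and 5188 and 1289 for CORIN- cells. The part of pluripotent cells in the Sox2 differences was not tested.
Sox1, which marks early neural plate cells, had nearly the opposite order. Its log2 signals were 8.52 (ESC CORIN+), 8.77 (ESC CORIN-), 9.39 (VM CORIN+) and 9.71 (VM CORIN-). Sox1 was 1.83-fold lower in ESC-derived than in VM CORIN+ cells and 1.93-fold lower in CORIN- cells, and it was lower in the CORIN+ population of both sources, with log2 differences of -0.25 and -0.33. The Sox2 difference between sources exceeded that of Sox1 by 1.53 log2 units in CORIN+ cells and 1.29 in CORIN- cells. These gaps within the arrays do not depend on how the arrays were scaled to each other by a constant.
Sox3, the X-linked member of the group, had differences between those of Sox1 and Sox2 in all 4 comparisons, with signals of 9.24 and 9.20 in the ESC CORIN+ and CORIN- cells and 9.49 and 9.75 in the fetal ones. Its CORIN difference of 0.04 in culture was under the MAD, and that in the fetal VM was -0.26. Sox3 was 1.46-fold lower in ESC-derived than in VM CORIN- cells, just under the 1.5-fold count, and 1.19-fold lower in CORIN+ cells.

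Sox21, the SOXB2 gene whose product opposes SOXB1 factors, followed Sox2. Its log2 signals were 11.25 in ESC CORIN+ cells, 10.73 in ESC CORIN- cells, and 10.39 in both fetal populations. The ESC CORIN+ array stood above the other three. The CORIN difference in culture was 1.44-fold, the largest of the 10 genes and higher than 98.3% of clusters, while the fetal difference was -0.002 log2. Between sources Sox21 was 1.82-fold higher in ESC CORIN+ cells and 1.27-fold in CORIN- cells. Over the 4 arrays the centred profiles of Sox21 and Sox2 differed by a root mean square of 0.107 log2, against 0.736 for Sox1 and Sox2.

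Of the SOXC genes, Sox11 and Sox4 shared an order that Sox12 did not. Sox11, which activates neuronal genes in newborn neurons, had log2 signals of 11.85 (ESC CORIN+), 12.33 (ESC CORIN-), 12.94 (VM CORIN+) and 13.31 (VM CORIN-). Its span of 1.47 log2 units was the widest of the 10 genes. It was 1.40-fold lower in CORIN+ cells in culture and 1.30-fold lower in the fetal VM, and by source it was 2.13-fold lower in ESC CORIN+ cells and 1.98-fold lower in CORIN- cells. Sox11 in CORIN+ cells was the only difference among the 10 genes and 4 comparisons that reached 2-fold.
Sox4, its close relative, had log2 signals of 10.93, 11.19, 11.57 and 11.99 in the same order of populations. It was 1.20-fold lower in CORIN+ cells in culture and 1.33-fold lower in the fetal VM. Between sources it was 1.56-fold lower in ESC CORIN+ cells and 1.74-fold lower in CORIN- cells. Both genes thus had their lowest signal in ESC CORIN+ cells and their highest in VM CORIN- cells.
Sox12, the remaining SOXC gene, was nearly flat, at 11.11 and 11.12 in the ESC CORIN+ and CORIN- cells and 10.97 and 11.19 in the fetal ones. Its largest difference was the 1.16-fold lower signal in VM CORIN+ than CORIN- cells, and its span of 0.22 log2 units was the smallest of the 10.

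Neuronal genes, as a summed signal, had the same order of arrays as Sox11 and Sox4, an order that the SOXB1 gene Sox1 shared. Their median differences were larger than those of Sox11 and Sox4 in all 4 comparisons, but not every neuronal gene differed more. Syt1 was at -0.77 by source in CORIN+ cells, where Sox11 was at -1.09, and Mapt at -0.25 by CORIN in culture, where Sox11 was at -0.48. The summed linear signal of 20 neuronal genes was 20181 in ESC CORIN+ cells, 30728 in ESC CORIN- cells, 63911 in VM CORIN+ cells and 93167 in VM CORIN- cells. All 20 were 1.5-fold or more lower in ESC-derived than in fetal cells, in the CORIN+ and in the CORIN- comparison, with median log2 differences of -1.88 and -1.70. By CORIN, 14 of the 20 were 1.5-fold or more lower in culture (median -0.63) and 7 in the fetal VM (median -0.55). Examples by source in CORIN+ cells are the neurofilament-type protein Ina (log2 difference -2.45), the microtubule regulator Stmn3 (-2.29) and the RNA-binding protein Elavl3 (-2.26). Of 9 measured proneural and commitment genes, 8 were 1.5-fold or more lower in ESC CORIN+ cells and 6 in CORIN- cells, with medians of -1.29 and -0.86. Neurod4 and Neurog1, bHLH factors of neuronal commitment, were 3.70-fold and 2.74-fold lower in CORIN+ cells. Whether the share of neurons accounts for the SOXC differences was not tested.
Neural progenitor genes did not share one direction. Of 13, 3 were 1.5-fold or more higher and 6 lower in ESC CORIN+ cells, and 1 and 5 in CORIN- cells, with medians of -0.05 and -0.06. Pax6, which is low in the floor plate, was 9.67-fold lower in ESC-derived than in VM CORIN+ cells, the growth factor-binding phosphatase Ptprz1 5.03-fold and the Notch target Hes5 3.92-fold. Hes1 went the other way, 1.31 log2 units higher in culture for CORIN+ and 1.68 for CORIN- cells. Prom1 was 0.69 log2 units higher in culture for CORIN+ cells. Within the culture 4 of the 13 were 1.5-fold or more higher in ESC CORIN+ cells and 1 was lower (median 0.19), the higher ones including Hes5 (1.77-fold) and the fatty acid-binding protein Fabp7 (1.64-fold). In the fetal VM the glutamate transporter gene Slc1a3 was 2.24-fold higher in CORIN+ cells, 2 of the 13 genes were 1.5-fold or more lower, and the median was 0.04. By CORIN, none of the 11 measured cell division genes reached 1.5-fold in culture or in the fetus, with medians of -0.01 and 0.22. By source, 2 of the 11 were 1.5-fold or more higher in ESC CORIN- cells and none in CORIN+ cells.

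**Figure D2:**
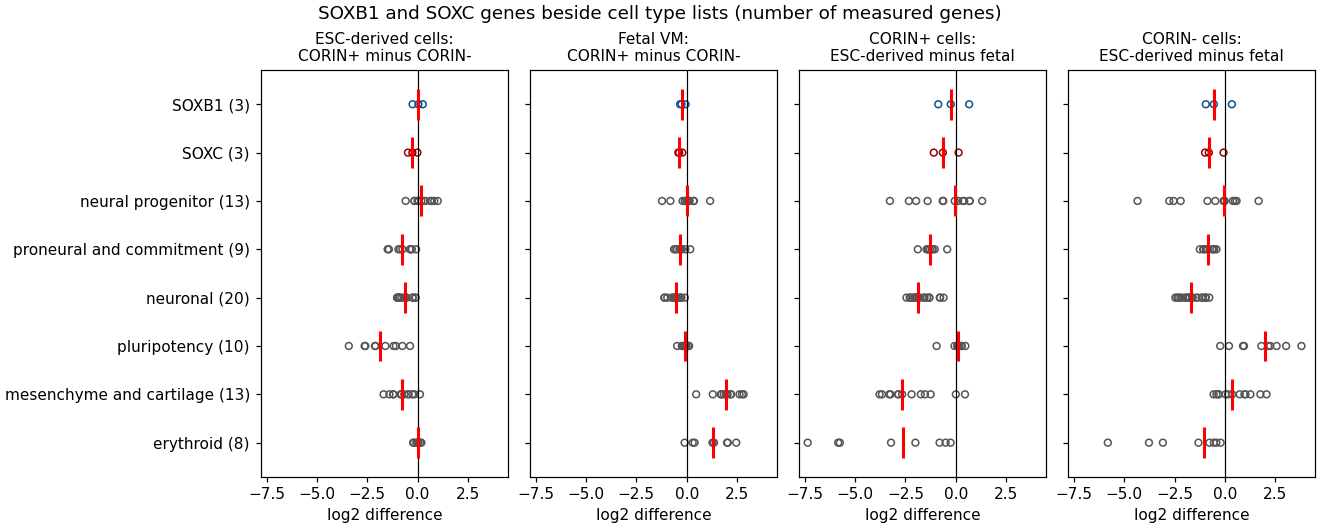
Log2 difference (horizontal axis) of each measured gene in the SOXB1 and SOXC groups and in 6 lists of cell types (rows, with the number of genes), in the 4 comparisons, 1 array per population. Circles are genes and red bars medians. The neuronal medians of -1.88 and -1.70 between sources lie farther left than the SOXC genes, and the SOXB1 genes there lie on either side of 0.

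The balance of the groups was taken within arrays, as the mean log2 difference of the 3 SOXB1 genes minus that of the 3 SOXC genes. It was 0.27 in favour of SOXB1 in the ESC CORIN+ cells and 0.12 in the VM CORIN+ cells, each against the CORIN- cells of the same source. By source it was 0.38 towards SOXB1 in ESC CORIN+ cells and 0.23 in CORIN- cells. All 4 balances had the same sign in comparisons that share arrays. The balances of 0.12 and 0.23 were smaller than the MAD of single clusters in their comparisons (0.162 and 0.260). That MAD is only a rough scale, since the spread of differences between group means was not computed. The group means also hide the split inside SOXB1. By source Sox2 alone was higher in culture, at 0.66 (CORIN+) and 0.35 (CORIN-). Sox1 was at -0.87 and -0.95 and Sox3 at -0.25 and -0.55, beside SOXC means of -0.53 and -0.62. Between sources, Sox2 had the highest difference of the SOXB1 genes and Sox11 the lowest of the SOXC genes, so they form the widest pair. Other pairs ran the opposite way, such as Sox1 (-0.87) and Sox12 (0.14) in CORIN+ cells. For Sox2 against Sox11 alone, the difference of log2 differences was 0.74 by CORIN in culture and 0.32 in the fetal VM. Their change in ratio by source was 3.37-fold in CORIN+ and 2.52-fold in CORIN- cells.

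**Figure D3:**
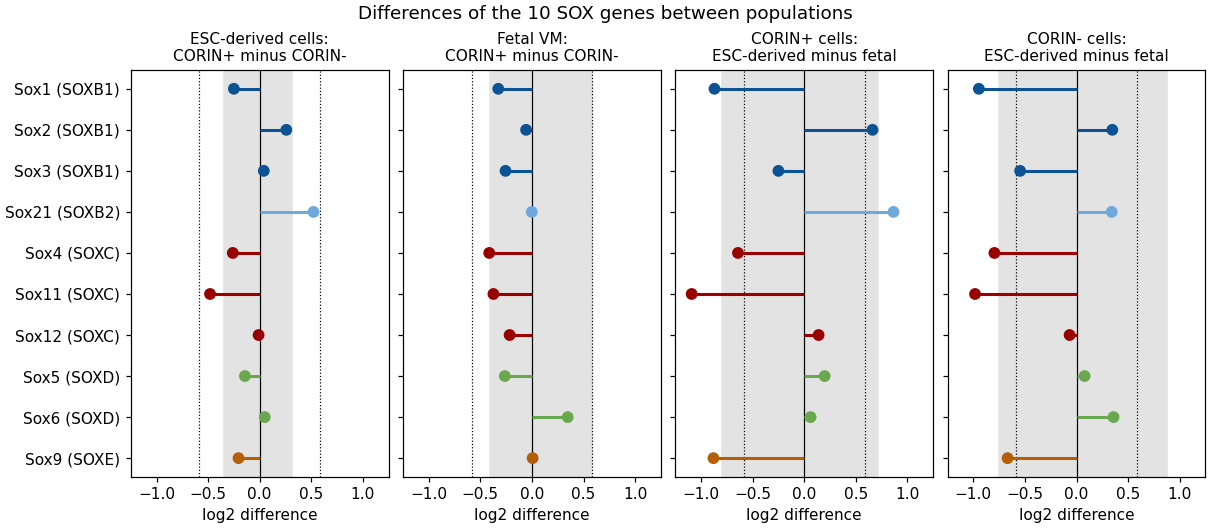
Log2 difference (horizontal axis) of each SOX gene in the 4 comparisons, with 1 array per population. Colours mark the SOX groups, grey bands run from the 5th to the 95th percentile of all 28856 clusters, and dotted lines mark 1.5-fold. No gene crosses a dotted line in the comparisons by CORIN, while Sox1, Sox4, Sox11 and Sox9 cross it to the left in both comparisons by source and Sox2 and Sox21 cross it to the right in CORIN+ cells. The grey bands are narrower by CORIN, and Sox21 and Sox11 in culture and, barely, Sox4 in the fetal VM lie outside them. By source, Sox2 and Sox4 in CORIN+ cells and Sox9 in CORIN- cells lie past 1.5-fold but inside the bands.

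The SOXD genes stayed under 1.5-fold between sources and ran opposite ways by CORIN in the fetus. Sox6 had log2 signals of 10.21 (ESC CORIN+), 10.16 (ESC CORIN-), 10.15 (VM CORIN+) and 9.80 (VM CORIN-). The VM CORIN- array was the low one, and the other three lay within 0.06. Sox6 was 1.27-fold higher in VM CORIN+ than CORIN- cells, higher than 91.9% of clusters, and 1.03-fold in culture. SOX6 also acts in erythroid and cartilage cells. Of 8 measured erythroid genes 5 were 1.5-fold or more higher in VM CORIN+ cells, with a summed linear signal of 27490 in CORIN+ and 8748 in CORIN- cells, against 896 and 887 in the ESC-derived arrays. Col2a1, the cartilage collagen gene, had a log2 difference of 0.47 there, the lowest of the 13 genes of mesenchyme and cartilage. The part of these cells in the Sox6 difference was not tested.
Sox5, which SOX6 pairs with, had log2 signals of 9.51 and 9.65 in the ESC CORIN+ and CORIN- cells and 9.31 and 9.57 in the fetal ones. It was 1.20-fold lower in VM CORIN+ cells and 1.10-fold lower in ESC CORIN+ cells. In the fetal VM the Sox6 difference exceeded the Sox5 difference by 0.61 log2 units, and in culture by 0.19. By source Sox5 stayed within 0.20 log2 units, under the MAD in both comparisons.

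Sox9, the SOXE gene, was higher in both fetal arrays. Its log2 signals were 11.30 in ESC CORIN+ cells, 11.51 in ESC CORIN- cells and 12.18 in each fetal population. The fetal difference by CORIN was 0.0066 log2. By source Sox9 was 1.84-fold lower in ESC CORIN+ cells and 1.59-fold lower in CORIN- cells. SOX9 also directs cartilage formation, and the 13 mesenchyme and cartilage genes did not keep one direction by source, with 11 that were 1.5-fold or more lower in ESC CORIN+ cells and 6 that were higher in ESC CORIN- cells. Their summed signal in VM CORIN+ cells was 4.02 times that in VM CORIN- cells, and Col2a1 was 0.47 higher there on the log2 scale. By source, Col2a1 differed by 0.0023 log2 units (CORIN+) and 0.74 (CORIN-), higher in culture. The part of such cells in the Sox9 differences was not tested. The gliogenic list went the same way by source, with 5 of 10 genes 1.5-fold or more lower in ESC CORIN+ cells and 4 in CORIN- cells, among them, in CORIN+ cells, the platelet-derived growth factor receptor gene Pdgfra (9.87-fold), which mesenchyme expresses too, and in both comparisons Nfib (3.45-fold and 2.95-fold) and Olig2 (3.19-fold and 2.39-fold). Aqp4, the water channel of astrocytes, was below the array median in the VM, at 7.19 (CORIN+) and 6.82 (CORIN-).

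Across the 4 arrays the 10 genes fell into profiles that did not follow the SOX groups. Profiles were compared as the root mean square difference of log2 signals after each gene was centred on its own mean, a measure that takes in the difference between sources. Sox1 lay nearest to Sox4 (0.0997) and Sox11 (0.106), and farther from Sox3 (0.276) and Sox2 (0.736) of its own group. Sox12 lay nearest to Sox5 (0.071), and farther from Sox4 (0.394) and Sox11 (0.565). Sox12 and Sox5 span only 0.22 and 0.34 log2 units, and nearly flat genes lie close in this measure whatever their order of arrays. Sox9 lay nearest to Sox1 (0.137).
Among all 19937 other genes, those nearest to Sox11 were Ankrd13b (0.022), the protocadherin Pcdh17 (0.025) and the chloride channel gene Ano1 (0.029). Nearest to Sox4 were Hectd4 (0.023), Tmem121b (0.025) and the splicing factor Rbfox2 (0.030), and nearest to Sox1 were Tbc1d9 (0.016), the potassium channel Kcnb2 (0.024) and the heparan sulfate sulfotransferase Hs3st5 (0.026). Hs3st5 was dim, below the array median in all 4 arrays (log2 signals from 5.87 to 7.12). Kcnb2 was below it in both ESC-derived arrays (7.51 and 7.80). In ESC CORIN+ cells Pcdh17 (7.96) and Ano1 (7.95) were just below it. The nearest SOX gene ranked 65th for Sox11 (Sox1), 144th for Sox4 (Sox1) and 92nd for Sox1 (Sox4). These 3 were the genes with a span of at least 1 log2 unit, and the likeness rests on 4 arrays.

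**Figure D4:**
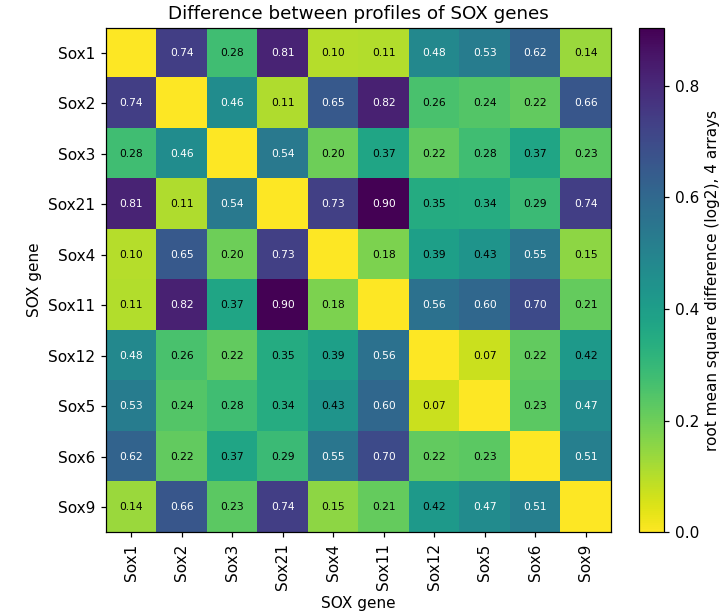
Root mean square difference of centred log2 signals over the 4 arrays for each pair of SOX genes (colour and printed value, in log2 units), where a smaller value is a more similar profile. Sox1, Sox4, Sox11 and Sox9 form one block of small values (0.10 to 0.21), Sox2 and Sox21 another (0.11), and the nearly flat Sox12 and Sox5 one more (0.07). The blocks are not sharply apart, since Sox3 lies 0.20 from Sox4, and Sox6 lies 0.22 from Sox2 and from Sox12.

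Of the 10 other SOX genes of the mouse, all with a cluster on the array, Sox14 was the only one 1.5-fold apart in any comparison. Sox14, a SOXB2 gene of GABAergic neurons, had log2 signals of 7.66 and 7.54 in the ESC CORIN+ and CORIN- cells, 9.06 in VM CORIN+ cells and 10.93 in VM CORIN- cells, so the VM CORIN- array stood far above the others. It was 3.66-fold lower in VM CORIN+ than CORIN- cells, and 10.5-fold lower in ESC-derived than in VM CORIN- cells. Sox21, of the same SOXB2 group, had no such difference between the fetal populations. The other 9 genes (Sox7, Sox8, Sox10, Sox13, Sox15, Sox17, Sox18, Sox30 and Sry) had log2 differences from -0.50 to 0.12 by CORIN in culture and from -0.18 to 0.22 in the fetal VM. By source they ranged from -0.48 to 0.19 in CORIN+ cells and from -0.49 to 0.39 in CORIN- cells. Sox10, which defines neural crest and oligodendrocyte lineage cells, stayed dim, from 7.42 to 7.94.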

How the data were processed

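Total RNA of the 4 sorted populations was labelled with the Ambion WT Expression Kit and hybridized to Affymetrix whole-transcript mouse arrays. The authors used GeneSpring and deposited log2 signals, 1 per cluster and array. How signals were summarized and normalized is not stated, and the number of arrays limits precision. Of 21789 clusters with 1 gene symbol, 21698 took the symbol listed for their gene identifier (GRCm38.p6), whether or not it had changed. The brightest cluster stood for a gene. Differences of log2 signals were taken, with no test. Members and the 14 gene lists were chosen with earlier results of these data known. Of 159 list entries 153 were measured. Named were all members, other SOX genes past 1.5-fold, up to 3 genes per list with the largest difference in the direction of its median, and the 3 genes nearest in profile to members spanning 1 log2 unit. Sox10, Col2a1, genes shown again in a comparison outside their top 3, and the promoters and motifs were chosen after values were seen. Alternatives were quantile normalization, median centring, 32 added to linear signals, means over clusters, 2 other thresholds and bright clusters only. Procedures were tested on simulated data. Python 3.11.15, numpy 2.4.6, pandas 2.3.3 and matplotlib 3.10.9 were used.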

Additional observations from a re-analysis of the deposited data

Results flagged for a closer look

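Sox18, a SOXF gene of endothelial cells, differed by CORIN in opposite directions in the 2 sources, each past the MAD, and this difference between sources was not tested. It was 0.41 log2 units lower in ESC CORIN+ cells (difference -0.41, signals 7.34 and 7.75) and 0.22 higher in VM CORIN+ cells (signals 7.71 and 7.49). All 4 signals lie below the array medians. The 10 endothelial genes had medians of -0.41 and 0.42 in the same comparisons, and their part in the Sox18 values was not tested. None of the 10 neural SOX genes did so past the MAD in both sources.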

How the results depend on the processing

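The medians of the 10 genes, the 4 balances and the values of the single genes moved by at most 0.082 log2 under quantile normalization, median centring, 32 added to the linear signals and the mean over clusters. The last of these changed nothing, since each gene has 1 cluster. Sox6 by source in CORIN+ cells (0.06) changed sign under quantile normalization (-0.02), and Sox21 in the fetal VM (-0.002) changed sign under centring (0.04). Under these settings and among bright clusters 1 count changed: the genes lower in ESC CORIN- than in VM CORIN- cells went from 4 to 5 under quantile normalization, where Sox3 passed 1.5-fold (-0.55 became -0.62). Counts moved more with the threshold. At 2-fold, 0 genes were higher and 1 lower in ESC CORIN+ cells, and 0 were lower in CORIN- cells. At a lower threshold of 0.32 log2, 1 gene was higher and 1 lower by CORIN in culture, 1 higher and 3 lower in the fetal VM, and 3 higher in ESC CORIN- cells. The shares of all clusters past either of these thresholds were not computed, so these counts cannot be set against a background. With no replicates, no difference could be set against the spread between samples.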
